A study of Mus musculus with 8 samples.

Results

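The genes described are 9 transcription factor genes of T cells: Tcf7 and Lef1, the forkhead genes Foxp1, Foxo1 and Foxo3, and Myb, Satb1, Ets1 and Bcl11b. They were taken by name, with earlier results of these data known. They are 9 of the 39179 genes counted in each library, and all 9 passed the filter on low counts that left 11475 genes for testing. The RNA came from mouse T cells with the Smarta transgenic T cell receptor and a CreERT2 recombinase that tamoxifen activates, which all groups carried. Before transfer into C57BL/6 recipients the cells received a retroviral vector, either an inducible Bach2 vector or an empty vector (EV). The recipients were immunized under the skin with nitrophenol and the receptor's peptide GP61-80 coupled to mouse serum albumin. Tamoxifen was injected into the peritoneum on day 5 in all groups, and cells were taken 18 hours later, on day 6, from inguinal lymph nodes that had been pooled. Thy-1.1+ CD44hi cells were sorted as CXCR5+ PD-1+ follicular helper T (Tfh) cells or CXCR5- PD-1- non-Tfh cells. The 4 groups are thus Tfh cells with Bach2, Tfh cells with EV, non-Tfh cells with Bach2 and non-Tfh cells with EV, with 2 libraries each. The labels do not say whether the 2 libraries of a group came from separate cultures or animals, so p-values measure only the spread between these libraries.

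TCF-1, the product of Tcf7, and LEF-1 are related factors with an HMG box DNA-binding domain. They keep T cells in a naive or memory-like state, and early in an immune response they favour the Tfh fate together with Bcl6. FOXO1 and FOXO3 are forkhead factors that the kinase AKT holds in the cytoplasm after T cell activation. In resting T cells nuclear FOXO1 drives homing and survival genes such as Klf2, Ccr7 and Il7r, and it restrains the Tfh fate. FOXP1, another forkhead factor, keeps naive T cells quiescent and also limits Tfh differentiation. MYB supports the survival and self-renewal of immature and memory lymphocytes, SATB1 organises chromatin in developing T cells, ETS1 is needed for T cell survival and cytokine expression, and BCL11B commits progenitors to the T cell lineage.

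Each library held between 7862879 and 9889859 counts, and levels are given in CPM, read counts divided by library size and expressed per 1000000 counts, with library sizes scaled by TMM, the trimmed mean of M-values method. Bach2, a transcription repressor that limits effector differentiation, had 121 and 135 CPM in Tfh cells with the Bach2 vector, against 11.2 and 14.0 CPM in Tfh cells with EV. In non-Tfh cells it had 131 and 158 CPM with the Bach2 vector, against 24.9 and 28.9 CPM with EV. Reads from the vector and from the cells' own gene cannot be told apart. The 5 T cell markers Cd3e, Cd3g, Trac, Cd4 and Cd5 summed to 9914 to 11239 CPM in Bach2 Tfh, 9890 to 10307 CPM in EV Tfh, 7983 to 8198 CPM in Bach2 non-Tfh and 7721 to 8003 CPM in EV non-Tfh libraries. A list of 6 B cell markers summed to 2.05 to 11.6 CPM over the 8 libraries. The natural killer cell markers Ncr1, Klrb1c and Eomes summed to 90.4 to 100.4 CPM in Bach2 Tfh, 61.8 to 65.3 CPM in EV Tfh, 20.04 to 24.3 CPM in Bach2 non-Tfh and 11.7 to 22.03 CPM in EV non-Tfh libraries. Of these, Ncr1 was at 0 in all 8 libraries, Eomes had 2.41 to 7.34 CPM, and Klrb1c made up most of the sum and was higher in Tfh cells with both vectors; the part of such cells in the results was not tested. A list of 8 Tfh markers, which includes the sorting markers Cxcr5 and Pdcd1, summed to 2401 to 2829 CPM in Bach2 Tfh and 2979 to 3399.8 CPM in EV Tfh libraries. The same markers summed to 906 to 1024 CPM in Bach2 non-Tfh and 1322 to 1414 CPM in EV non-Tfh libraries. Icos made up most of these non-Tfh sums, at 693 and 641 CPM with Bach2 and 938 and 915 CPM with EV. In Tfh cells Icos had 542 and 586 CPM with Bach2 and 585 and 747 CPM with EV. The other 7 markers were higher in Tfh than in non-Tfh cells with both vectors. In such bulk libraries, fewer cells of a type and less RNA per cell cannot be told apart.

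The genes lie on 7 mouse chromosomes of GRCm38, each as a protein-coding gene of the GENCODE M21 annotation. Lef1 (chr3:131110471-131224356) and Foxo1 (chr3:52268336-52353221) are on the plus strand of chromosome 3, and Ets1 (chr9:32636221-32757820) is on the plus strand of chromosome 9. On the minus strand lie Foxp1 (chr6:98925338-99522721), Foxo3 (chr10:42181841-42276755), Myb (chr10:21124935-21160984), Tcf7 (chr11:52252371-52283014), Bcl11b (chr12:107910403-108003602) and Satb1 (chr17:51736187-51833290). Promoter windows from RefSeq (GRCm38.p6, 250 bases before to 50 after a transcript start) were found for 8 of the 9 genes (all but Ets1), 18 windows in all, of which 4 are shown. The windows of Lef1, Foxp1 and Foxo1, the 3 genes whose transcripts rose with Bach2 in Tfh cells, are those of the most upstream start. The Tcf7 window was chosen because it holds matches to searched motifs. The other Tcf7 window, at a more upstream start (chr11:52282965-52283264), holds no match. Each reads 5′ to 3′ on the gene's strand, with matches in capitals: AACNGTT (a MYB motif) in Foxp1, and CTTCCGG (an ETS motif read from the other strand) and GTAAACA (a forkhead motif) in Tcf7.
Lef1, chr3:131110047-131110346, plus strand: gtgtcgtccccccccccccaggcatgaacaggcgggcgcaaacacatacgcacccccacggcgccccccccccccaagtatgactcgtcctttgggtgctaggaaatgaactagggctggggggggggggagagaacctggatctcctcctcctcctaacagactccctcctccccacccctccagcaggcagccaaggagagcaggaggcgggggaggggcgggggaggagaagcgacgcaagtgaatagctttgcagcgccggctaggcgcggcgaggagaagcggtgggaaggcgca
Foxp1, chr6:99520944-99521243, minus strand: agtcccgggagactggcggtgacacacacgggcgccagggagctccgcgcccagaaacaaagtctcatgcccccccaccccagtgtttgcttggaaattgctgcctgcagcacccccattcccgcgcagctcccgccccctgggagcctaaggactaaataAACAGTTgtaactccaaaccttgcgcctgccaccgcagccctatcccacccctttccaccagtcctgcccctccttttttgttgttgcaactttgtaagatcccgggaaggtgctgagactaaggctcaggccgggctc
Foxo1, chr3:52268087-52268386, plus strand: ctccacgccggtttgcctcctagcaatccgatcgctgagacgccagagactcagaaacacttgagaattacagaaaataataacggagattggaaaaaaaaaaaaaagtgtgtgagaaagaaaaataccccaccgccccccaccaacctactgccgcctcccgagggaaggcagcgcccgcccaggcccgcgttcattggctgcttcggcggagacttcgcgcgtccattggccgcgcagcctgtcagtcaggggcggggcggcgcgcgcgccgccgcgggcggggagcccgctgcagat
Tcf7, chr11:52282546-52282845, minus strand: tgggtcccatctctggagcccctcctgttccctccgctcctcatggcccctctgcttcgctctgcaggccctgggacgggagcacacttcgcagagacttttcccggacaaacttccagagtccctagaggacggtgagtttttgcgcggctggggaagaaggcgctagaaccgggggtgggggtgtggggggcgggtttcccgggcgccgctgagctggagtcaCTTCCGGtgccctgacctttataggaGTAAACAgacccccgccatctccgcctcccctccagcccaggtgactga

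The search covered 6 motifs on both strands; CTTTGAT and CTTTGAA differ in their last letter only. TGANTCA, the core that Bach and AP-1 factors share, was in 0 of the 18 windows and in 7.81% of all 32851 RefSeq windows of this length. CTTTGAT, a TCF and LEF motif, was also in 0 of the 18, against 3.73% of all windows. Its second form CTTTGAA (5.14% of all windows) was in 1 of the 3 Foxp1 windows, at a downstream start, and in the Bcl11b window. GTAAACA (3.65%) was in the Tcf7 window shown and in that of Myb. CCGGAAG or its reverse complement (8.86%) was in the Tcf7 window shown, and AACNGTT (4.45%) in the Foxp1 window shown. These matches describe letters only.

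Per kilobase of exon, the 9 genes stood at widely different levels. Tcf7 averaged 799 CPM per kilobase over the 8 libraries, rank 32 of 11381 genes with a length, and Ets1 averaged 267, rank 145. Bcl11b (50.03), Lef1 (34.1), Satb1 (33.7) and Foxo1 (27.0 CPM per kilobase) followed, then Foxp1 (11.9) and Myb (9.35). Foxo3 was lowest at 0.914 CPM per kilobase, rank 9833, with 35 to 99 raw counts in a library, against 256 or more for each of the other 8 genes. The ratio of Tcf7 to Lef1 per kilobase was 22.8 and 22.4 in Bach2 Tfh libraries, 29.6 and 25.5 in EV Tfh libraries, 18.8 and 21.05 in Bach2 non-Tfh libraries, and 23.5 and 23.7 in EV non-Tfh libraries. It was lower with Bach2 than with EV in both cell types, with no overlap of the libraries; the ratio was not tested.

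**Figure D1:**
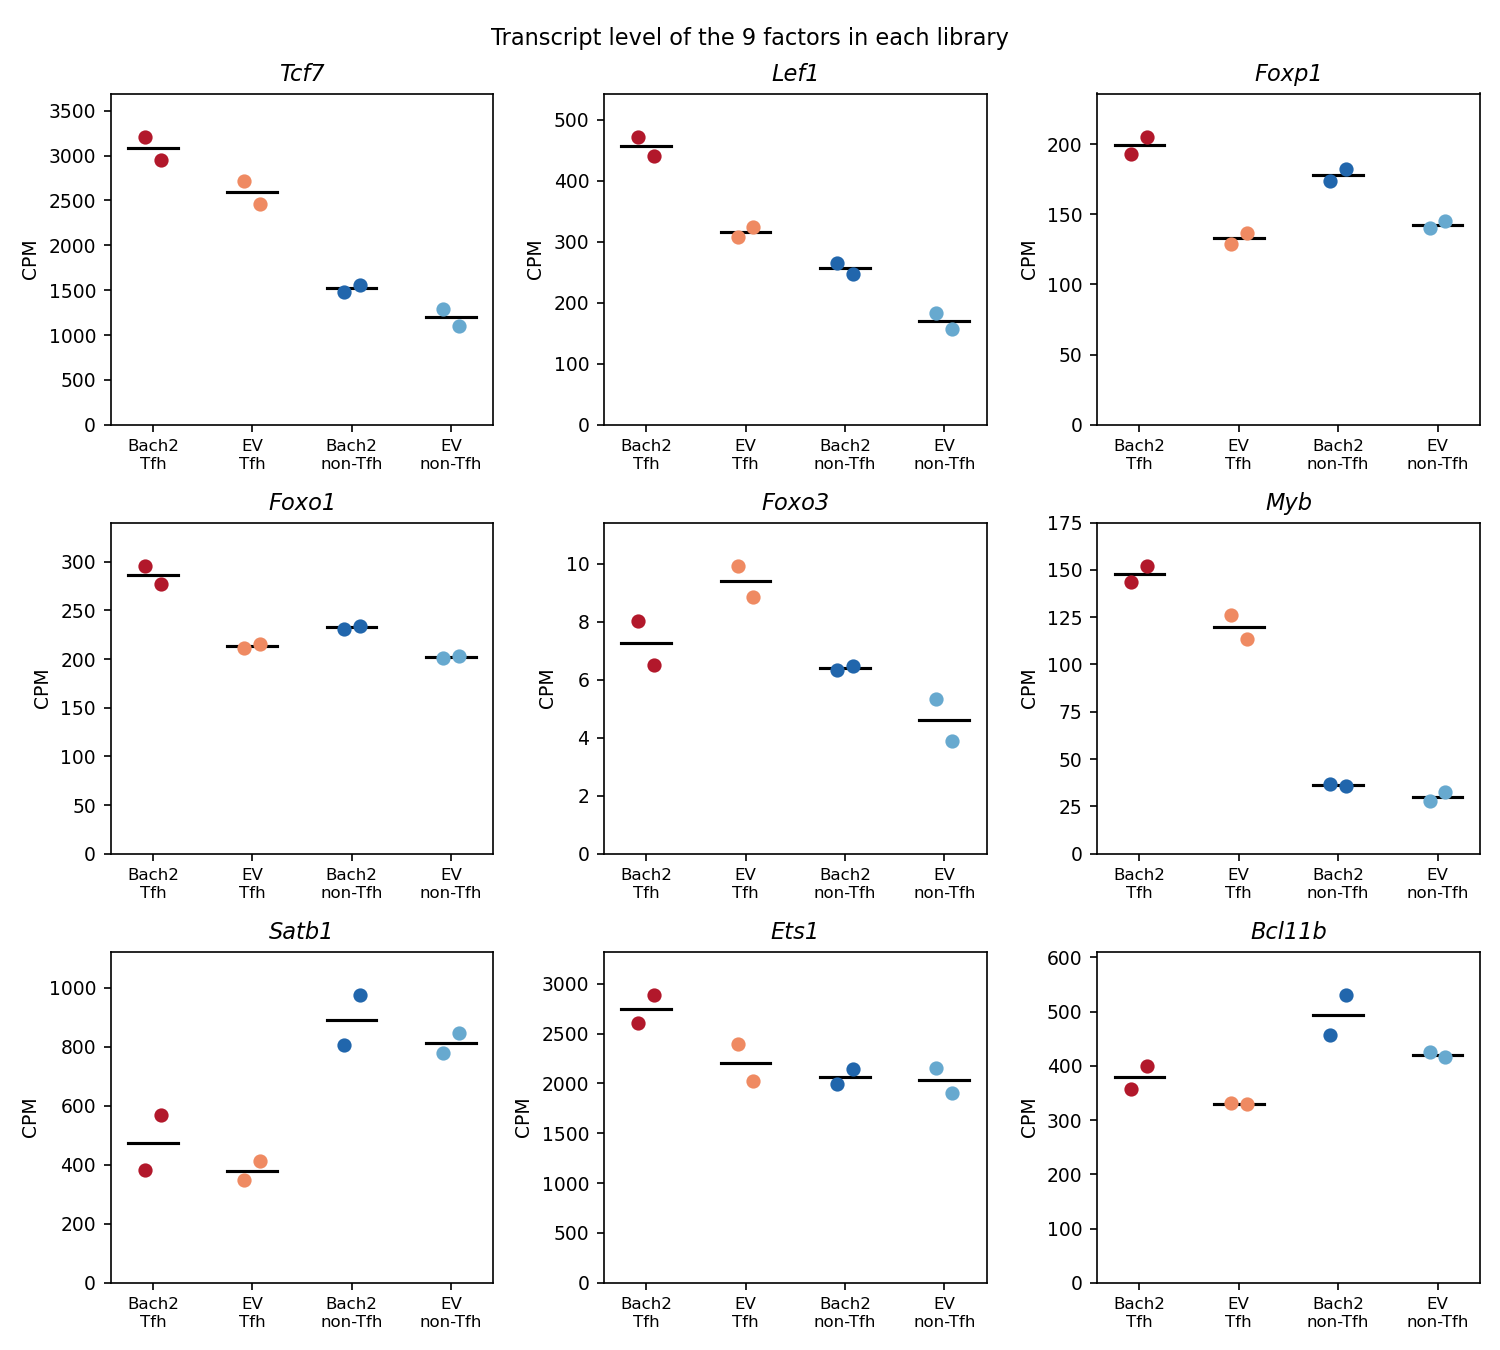
TMM-scaled CPM (vertical axes, from 0) of each of the 9 factor genes in the 4 groups (horizontal axes); points are libraries and lines are group means of 2. Tcf7, Lef1 and Myb step down from Bach2 Tfh to EV Tfh to Bach2 non-Tfh to EV non-Tfh, Satb1 and Bcl11b are highest in non-Tfh cells, and Foxp1 and Foxo1 are highest in the 2 Bach2 groups.

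In the plot of levels by library, Tcf7, Lef1 and Myb were highest in Bach2 Tfh, then EV Tfh, Bach2 non-Tfh and EV non-Tfh cells, and no neighbouring groups overlapped. Foxp1 and Foxo1 were highest in Bach2 Tfh and next in Bach2 non-Tfh cells, above both EV groups, again with no overlap between neighbours. Satb1 and Bcl11b were highest in Bach2 non-Tfh, then EV non-Tfh, Bach2 Tfh and EV Tfh cells; Satb1 overlapped between the vectors in both cell types. Ets1 was highest in Bach2 Tfh cells, and its other 3 groups overlapped in turn. Foxo3 had an order of its own, with EV Tfh highest, then Bach2 Tfh, Bach2 non-Tfh and EV non-Tfh cells.

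Lef1 rose with Bach2 in Tfh and in non-Tfh cells. Its level was 472 and 441 CPM in Bach2 Tfh libraries, against 308 and 323 CPM in EV Tfh libraries. Bach2 non-Tfh libraries had 265 and 247 CPM, against 183 and 156 CPM in EV non-Tfh libraries. All Bach2 libraries lay above the EV libraries of the same cell type. For Tfh cells the log2 fold change of Bach2 over EV was 0.53 (SE 0.0900, adjusted p = 0.0112), and for non-Tfh cells 0.59 (SE 0.0916, adjusted p = 0.00748). Every adjusted p given here comes from the quasi-likelihood test of edgeR, adjusted by Benjamini and Hochberg's method over the 11475 genes, unless another tool is named. Without EV Tfh replicate 2 the Tfh value was 0.57 (adjusted p = 0.0703), and without EV non-Tfh replicate 2 the non-Tfh value was 0.49 (adjusted p = 0.147). Averaged over the cell types it was 0.56 (SE 0.0642, adjusted p = 0.000525), and it stayed past the threshold of 0.05 in 13 of 13 alternatives. An antisense gene, Gm43352, overlaps 13.7% of the Lef1 exons and was not among the counted genes; the library kit does not mark the strand.

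Tcf7, the relative of Lef1, had higher levels with Bach2 too, with smaller differences. It had 3211 and 2952 CPM in Bach2 Tfh cells, against 2721 and 2459 CPM in EV Tfh cells. Bach2 non-Tfh cells had 1483 and 1556 CPM, against 1286 and 1106 CPM in EV non-Tfh cells. The Bach2 libraries were higher in both cell types without overlap, yet neither difference passed the test alone, with 0.25 (SE 0.0907, adjusted p = 0.188) for Tfh and 0.35 (SE 0.0910, adjusted p = 0.123) for non-Tfh cells on the log2 scale. Without a count filter both passed (adjusted p = 0.0497 for Tfh and 0.00207 for non-Tfh cells), and under DESeq2 the non-Tfh difference did (0.0435). With both cell types averaged, Tcf7 rose by 0.30 on the log2 scale (SE 0.0642, adjusted p = 0.0172). That call was lost without EV Tfh replicate 2 (adjusted p = 0.0698), EV non-Tfh replicate 2 (0.100) or Bach2 non-Tfh replicate 2 (0.0790).

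Foxp1 rose with Bach2 in Tfh cells, where it had 193 and 205 CPM, against 129 and 137 CPM with EV. The non-Tfh libraries had 174 and 182 CPM with Bach2, against 140.1 and 145 CPM with EV. No library of one vector overlapped with the other in either cell type. The log2 fold change was 0.59 (SE 0.0836, adjusted p = 0.00571) in Tfh cells, past the threshold in 14 of 14 alternatives. In non-Tfh cells it was 0.32 (SE 0.0832, adjusted p = 0.121), and over both cell types 0.45 (SE 0.0590, adjusted p = 0.00105).

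Foxo1 had 296 and 277 CPM in Bach2 Tfh cells, against 212 and 215 CPM in EV Tfh cells. For non-Tfh cells the values were 231 and 234 CPM with Bach2, against 201 and 203 CPM with EV. The CV between the replicates of a group was at most 4.77%, and the vectors did not overlap. The log2 fold change was 0.42 (SE 0.0778, adjusted p = 0.0178) in Tfh cells, 0.20 (SE 0.0779, adjusted p = 0.360) in non-Tfh cells and 0.31 (SE 0.0551, adjusted p = 0.00726) over both. The call in Tfh cells was lost when any 1 of the 4 Tfh libraries was left out: the adjusted p was 0.0558 without Bach2 Tfh replicate 1, 0.0551 without Bach2 Tfh replicate 2, 0.0574 without EV Tfh replicate 1 and 0.111 without EV Tfh replicate 2. The averaged call remained in 13 of 13 alternatives.

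Foxo3, the other FOXO gene of the set, was scarce. It had 8.03 and 6.52 CPM in Bach2 Tfh cells, against 9.93 and 8.86 CPM in EV Tfh cells. Non-Tfh libraries had 6.33 and 6.47 CPM with Bach2, against 5.34 and 3.90 CPM with EV. The vectors did not overlap in either cell type, and the Bach2 libraries were the lower ones in Tfh cells and the higher ones in non-Tfh cells. Neither difference passed the test, with log2 fold changes of -0.37 (SE 0.248, adjusted p = 0.515) for Tfh and 0.47 (SE 0.267, adjusted p = 0.590) for non-Tfh cells.

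Myb had 144 and 152 CPM in Bach2 Tfh cells, against 126 and 113 CPM in EV Tfh cells. Among non-Tfh libraries it had 36.8 and 36.0 CPM with Bach2, against 27.9 and 32.4 CPM with EV. The Bach2 libraries were the higher ones in each cell type, with log2 fold changes of 0.30 (SE 0.102, adjusted p = 0.156) for Tfh and 0.27 (SE 0.116, adjusted p = 0.436) for non-Tfh cells. Averaged over both, Myb rose by 0.29 on the log2 scale (SE 0.0773, adjusted p = 0.0469), a call that remained in 6 of 13 alternatives. It was lost in a fit without robust variance estimates (adjusted p = 0.0523) and without any 1 library other than EV Tfh replicate 1 and Bach2 Tfh replicate 1, where the adjusted p ran from 0.0758 to 0.192. Antisense Gm26577 overlaps 6.26% of the Myb exons and had at most 17 counts in a library.

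Ets1, needed for T cell survival, Bcl11b, the lineage commitment factor, and Satb1, the chromatin organiser, did not pass the vector test in either cell type or averaged, except under some alternatives given here. Ets1 had 2609.8 and 2891 CPM in Bach2 Tfh cells, against 2392 and 2023 CPM in EV Tfh cells (log2 fold change 0.32, SE 0.0977, adjusted p = 0.122). It had 1990.2 and 2141 CPM in Bach2 non-Tfh, against 2156 and 1904 CPM in EV non-Tfh cells, and these overlapped (0.02, SE 0.0976, adjusted p = 0.968). Without a count filter Ets1 passed in Tfh cells (adjusted p = 0.00455) and averaged over the cell types (0.0421). Bcl11b was higher with Bach2 in both cell types without overlap: it had 357 and 399.7 CPM in Bach2 Tfh, against 331 and 329 CPM in EV Tfh cells, and 457 and 531 CPM in Bach2 non-Tfh, against 425 and 416 CPM in EV non-Tfh cells. Its averaged log2 fold change was 0.22 (SE 0.0632, adjusted p = 0.0639). It passed in 5 of 13 alternatives, among them DESeq2 (adjusted p = 0.0470), no count filter (0.0111), and the fits without Bach2 Tfh replicate 1 (0.0395) or Bach2 non-Tfh replicate 1 (0.0311).

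Satb1 had 383 and 568 CPM in Bach2 Tfh cells, against 347 and 413 CPM in EV Tfh cells. Levels in non-Tfh cells were 807 and 977 CPM with Bach2, against 780.1 and 848 CPM with EV. The vectors overlapped in both cell types, and the log2 fold change in Tfh cells (0.32, SE 0.189, adjusted p = 0.468) hung on single libraries: it was 0.58 (adjusted p = 0.0417) without Bach2 Tfh replicate 1 and 0.01 (adjusted p = 0.989) without Bach2 Tfh replicate 2. Averaged over the cell types it was 0.23 (SE 0.133, adjusted p = 0.396), and 0.36 (adjusted p = 0.0302) without Bach2 Tfh replicate 1. Bach2 Tfh replicate 2 had 1.48 times the Satb1 level of replicate 1. In the other groups this ratio was 1.19 (EV Tfh), 1.21 (Bach2 non-Tfh) and 1.09 (EV non-Tfh). Of 6 non-Tfh markers, 5 were also higher in Bach2 Tfh replicate 2 (Il7r, Id2, Il2ra, Tbx21 and Selplg). These ran from 1.14 times for Selplg to 1.78 times for Il7r, while Prdm1 was at 0.557 times. In the other groups replicate 2 was also the higher one for each marker except Il2ra in EV Tfh (0.785 times) and Prdm1 in EV non-Tfh (0.923 times). The largest ratios there were 1.54 in EV Tfh (Tbx21), 1.44 in Bach2 non-Tfh (Prdm1) and 1.23 in EV non-Tfh (Id2). Over all libraries these 6 markers summed to 718 to 864 CPM in Bach2 Tfh, 577 to 747 CPM in EV Tfh, 2366 to 2722 CPM in Bach2 non-Tfh and 2627 to 2849 CPM in EV non-Tfh libraries. The part of the non-Tfh markers in the Satb1 values was not tested.

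**Figure D2:**
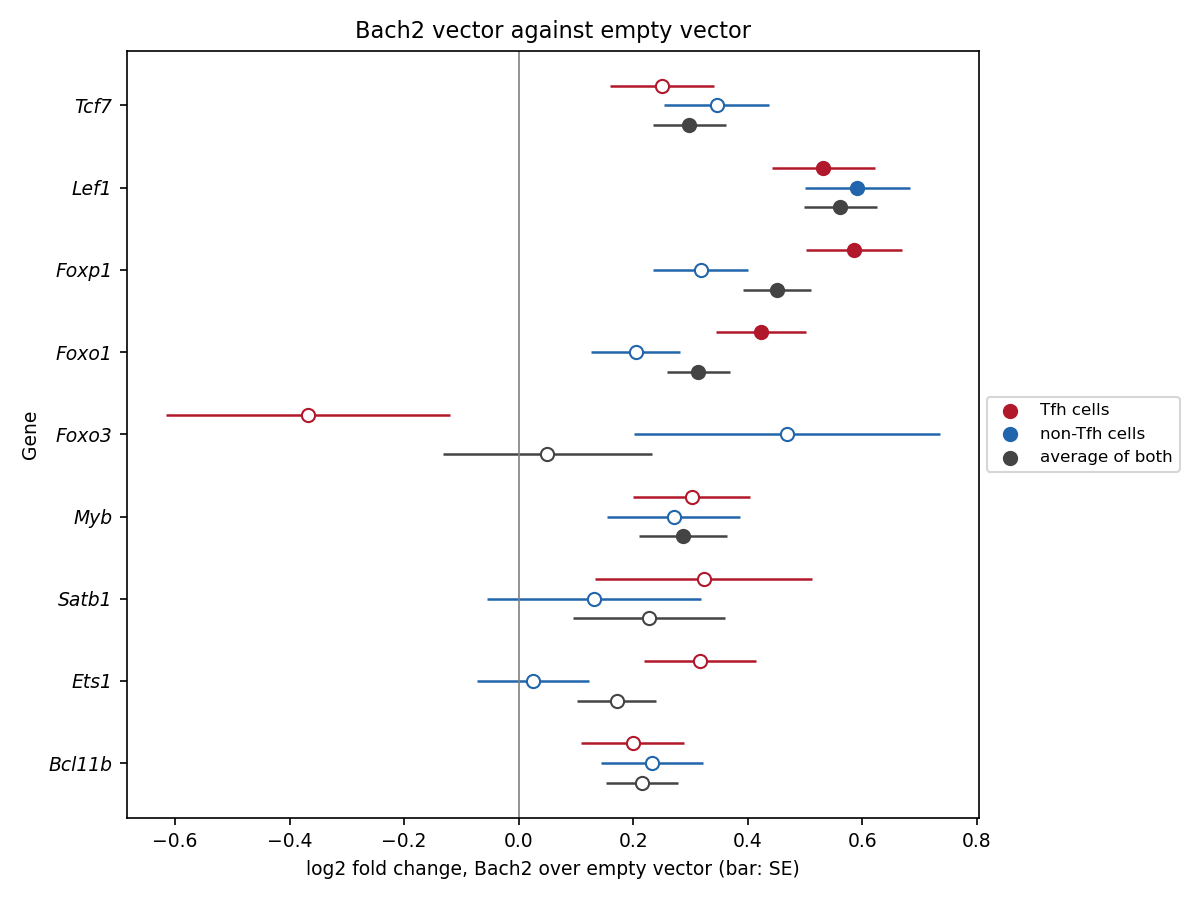
Log2 fold change of Bach2 over empty vector (horizontal axis) for each gene in Tfh cells, in non-Tfh cells and averaged over both; bars are SE, filled points have an adjusted p below 0.05 and open points do not. Lef1 is filled in all 3 comparisons, Foxp1 and Foxo1 in Tfh cells and in the average, Tcf7 and Myb in the average alone, and the Foxo3 estimates lie on opposite sides of 0 in the 2 cell types.

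In the plot of vector effects, 3 of the 9 genes rose in Tfh cells (Lef1, Foxp1 and Foxo1) and 0 fell, where 1.71% of all 11475 genes passed (0.549% upward, 1.16% downward). Among non-Tfh cells 1 rose (Lef1) and 0 fell, where 0.871% of all genes passed (0.253% upward, 0.619% downward). Averaged over the cell types 5 rose (Lef1, Foxp1, Foxo1, Tcf7 and Myb) and 0 fell, where 5.27% of all genes passed (2.37% upward, 2.90% downward). The median log2 fold change of the 9 genes was 0.32 in Tfh and 0.27 in non-Tfh cells, where that of all genes was -0.00054 and 0.00072. In Tfh cells both Bach2 libraries lay above both EV libraries for 7 of the 9 genes and below them for 1, a separation that 21.7% and 22.9% of all genes showed. In non-Tfh cells the counts were 7 and 0, against 20.9% and 21.3% of all genes. The 9 genes were chosen with earlier results of these data known. Their counts and medians beside those of all genes are therefore no test of the set. The count of genes that rose in Tfh cells fell to 1 without EV Tfh replicate 2 (Foxp1), and the count in non-Tfh cells to 0 without EV non-Tfh replicate 2. The averaged count of 5 was 3 without EV Tfh replicate 2, EV non-Tfh replicate 2 or Bach2 non-Tfh replicate 2.

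Whether the vector effect differed between the cell types was tested with an interaction, the log2 effect among Tfh cells less the one among non-Tfh cells. None of the 9 genes passed, and 0 of all genes did (0.00%), although 539 had an unadjusted p below 0.05 and DESeq2 called 4. Foxp1 had an interaction of 0.27 (SE 0.118), Foxo1 of 0.22 (SE 0.110) and Ets1 of 0.29 (SE 0.138), with estimates larger in Tfh cells and unadjusted p of 0.0397, 0.0672 and 0.0532. Foxo3 had the opposite sign at -0.84 (SE 0.365, unadjusted p = 0.0379). The interactions of Lef1 (-0.06, SE 0.128) and Tcf7 (-0.10, SE 0.128) were smaller than their errors. All 9 adjusted p were 0.998, so no cell type difference in the vector effect was shown for any of these genes.

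Between the cell types, Tcf7, Lef1 and Myb were higher in Tfh cells, and Satb1 and Bcl11b were lower, with either vector. Myb showed the widest difference of the set: its log2 fold change of Tfh over non-Tfh was 2.02 (SE 0.110, adjusted p = 3.86e-08) with Bach2 and 1.99 (SE 0.112, adjusted p = 4.08e-08) with EV. Tcf7 differed by 1.02 (SE 0.0916, adjusted p = 2.84e-06) with Bach2 and 1.12 (SE 0.0919, adjusted p = 1.19e-06) with EV, and Lef1 by 0.83 (SE 0.0905, adjusted p = 1.48e-05) with Bach2 and 0.89 (SE 0.0918, adjusted p = 9.38e-06) with EV. These 3 genes stayed past the threshold in 14 of 14 alternatives with each vector. In all 4 Tfh libraries each of the 3 genes lay above the non-Tfh libraries with the same vector.

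Satb1 was lower in Tfh cells, with log2 fold changes of -0.91 (SE 0.189, adjusted p = 0.0108) with Bach2 and -1.10 (SE 0.190, adjusted p = 0.00520) with EV. The first call was lost without Bach2 non-Tfh replicate 2 (adjusted p = 0.0544), and the second without EV Tfh replicate 1 (0.0650). Bcl11b was lower by -0.39 (SE 0.0893, adjusted p = 0.00579) with Bach2 and -0.35 (SE 0.0896, adjusted p = 0.0115) with EV. Leaving out Bach2 Tfh replicate 1 or Bach2 non-Tfh replicate 2 ended the Bcl11b call with Bach2 (adjusted p = 0.0660 and 0.0885), and leaving out any 1 of the 4 EV libraries ended that with EV (0.0501 to 0.0771).

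The other 4 genes passed with 1 vector at most. Foxo1 was higher in Tfh cells with Bach2 (0.30, SE 0.0775, adjusted p = 0.0115) and had an estimate of 0.08 (SE 0.0782, adjusted p = 0.523) with EV. Ets1 was likewise higher with Bach2 (0.41, SE 0.0977, adjusted p = 0.00663), with 0.12 (SE 0.0976, adjusted p = 0.428) with EV. Foxo3 passed with EV (1.02, SE 0.260, adjusted p = 0.0113), with 0.19 (SE 0.255, adjusted p = 0.658) with Bach2. Foxp1 did not pass with either vector, at 0.16 (SE 0.0826, adjusted p = 0.176) with Bach2 and -0.10 (SE 0.0840, adjusted p = 0.429) with EV. The difference between the vectors in these cell type effects is the interaction given above, which passed for no gene of the set. The Foxo1 call was lost without Bach2 Tfh replicate 1 (adjusted p = 0.0853), Bach2 non-Tfh replicate 1 (0.0683) or Bach2 non-Tfh replicate 2 (0.0589), the Ets1 call without Bach2 non-Tfh replicate 1 (0.0715), and the Foxo3 call without EV Tfh replicate 1 (0.0858) or EV non-Tfh replicate 2 (0.130).

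**Figure D3:**
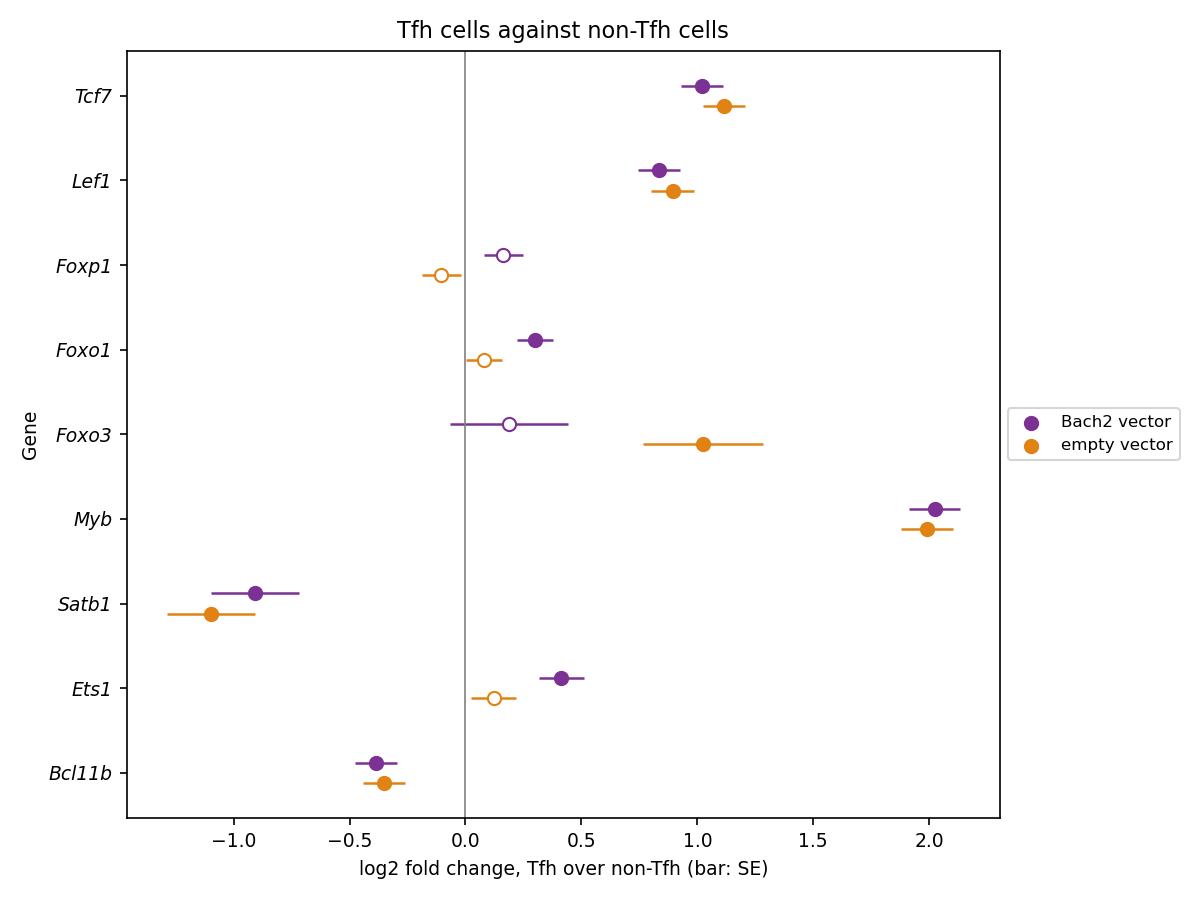
Log2 fold change of Tfh over non-Tfh cells (horizontal axis) for each gene with the Bach2 vector and with the empty vector; bars are SE, filled points have an adjusted p below 0.05 and open points do not. Myb lies near 2 and Tcf7 and Lef1 near 1 with both vectors, Satb1 and Bcl11b lie below 0 with both, and Foxo3, Foxo1 and Ets1 are filled with 1 vector each.

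With Bach2, 5 of the 9 genes were higher and 2 lower in Tfh cells, where 24.4% of all genes passed (11.6% higher, 12.7% lower). With EV the counts were 4 higher and 2 lower, where 21.9% of all genes passed (10.6% higher, 11.3% lower). All Tfh libraries lay above all non-Tfh libraries for 7 genes and below them for 2 with Bach2, a separation that 29.3% and 30.5% of all genes showed. With EV the counts were 5 and 3, against 31.3% and 30.9% of all genes. As for the vector, these counts are no test of the set, whose genes were chosen with earlier results known. The median log2 fold change in the plot of cell type effects was 0.30 with Bach2 and 0.12 with EV. The cells were sorted on CXCR5 and PD-1 protein, not on any of these factors.

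Across the 8 libraries the pattern of Tcf7 followed that of Myb (Pearson r of log2 CPM 0.98) and Lef1 (0.95), Satb1 followed Bcl11b (0.93) and ran against Myb (-0.88), and Foxp1 followed Foxo1 (0.87). Tcf7 and Foxp1 were little related (0.29). These values describe 8 libraries that share 4 groups, and carry no p. Among all tested genes, the patterns most like Tcf7 were those of Patj (r = 0.999), Idua (0.997) and Ifnar2 (0.995), and those most like Lef1 were Yipf3, Msrb2 and Id3 (0.99 each). Mlxip, Peli1 and Ubn1 were nearest to Foxp1 (0.96), and Heatr6, Bcas3 and Actn1 to Foxo1 (0.95 to 0.96). Ephx4 (0.99), Wbp1 and Etaa1os (0.96) were nearest to Foxo3. H2-Q2, Dpp4 and Matk were nearest to Myb (0.99), Smap2, Itgb3 and B4galt7 to Satb1 (0.99), Inpp5e, Uri1 and Cmtm6 to Ets1 (0.98 to 0.99), and Il4ra, Polr1a and Nup210 to Bcl11b (0.98 to 0.99). H2-Q2 has near-identical copies, and how its reads were split is uncertain.

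Of 26 tested genes for PI3-kinase, AKT, 14-3-3 and related proteins, 1 rose in Tfh cells, Rictor, a subunit of the mTORC2 complex that activates AKT, and 0 fell (median log2 fold change 0.04). Of all genes 0.549% rose and 1.16% fell in Tfh cells, 0.253% and 0.619% in non-Tfh cells, and 2.37% and 2.90% averaged. Rictor had 119 and 140.0 CPM in Bach2 Tfh cells, against 89.3 and 95.9 CPM in EV Tfh cells (0.49, SE 0.103, adjusted p = 0.0283). In non-Tfh cells 0 of 26 passed in either direction (median -0.02). Averaged over the cell types Rictor and Pik3cd, the PI3-kinase catalytic subunit of lymphocytes, rose (0.32, adjusted p = 0.0237, and 0.41, adjusted p = 0.00962). The call of Rictor remained in 5 of 8 fits that each left out 1 library for Tfh cells and in 3 of 8 for the average, and that of Pik3cd in 7 of 8. The averaged count of 2 was 0 without EV non-Tfh replicate 2, and 1 without Bach2 Tfh replicate 2, Bach2 non-Tfh replicate 2, EV Tfh replicate 1 or EV non-Tfh replicate 1.

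FOXO target genes were tested as 24 genes. For comparison, 0.549% of all genes rose and 1.16% fell in Tfh cells, 0.253% and 0.619% in non-Tfh cells, and 2.37% and 2.90% averaged. In Tfh cells 1 rose, Bcl2l11, which encodes the death-promoting protein BIM (0.67, SE 0.144, adjusted p = 0.0304, past the threshold in 4 of 8 fits that left out 1 library), and 0 fell, with a median of 0.24. In non-Tfh cells 1 rose, the PI3-kinase inhibitor gene Pik3ip1 (0.76, SE 0.127, adjusted p = 0.0128, 5 of 8 such fits), and 0 fell, with a median of 0.09. Averaged, 4 rose (Pik3ip1, Ccr7, Txnip and Fbxo32) and 1 fell (Gadd45b). The count of 4 was 1 without EV non-Tfh replicate 2, and 2 without Bach2 non-Tfh replicate 2, EV Tfh replicate 2 or EV non-Tfh replicate 1. Pik3ip1 remained in 8 of 8 fits that left out 1 library, Fbxo32 in 4, Txnip in 2 and Gadd45b in 2, with Gadd45b kept without Bach2 Tfh replicate 1 or Bach2 non-Tfh replicate 1. Pik3ip1 had 46.8 and 55.2 CPM in Bach2 Tfh, against 36.2 and 33.7 CPM in EV Tfh cells, and 77.9 and 91.6 CPM in Bach2 non-Tfh, against 52.6 and 47.9 CPM in EV non-Tfh cells. Its averaged log2 fold change was 0.65 (SE 0.0915, adjusted p = 0.00191), and no library of the 2 vectors overlapped within a cell type.

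FOXO1 targets of T cell homing and survival, Klf2, Ccr7, S1pr1 and Il7r, are named for that role and with their values known. In Tfh cells none of these 4 passed the vector test: the log2 fold changes were 0.80 for the chemokine receptor gene Ccr7 (adjusted p = 0.141), 0.72 for the transcription factor gene Klf2 (0.322), 0.60 for the lymph node exit receptor gene S1pr1 (0.125) and 0.23 for Il7r (0.814). Ccr7 had 198 and 289 CPM in Bach2 Tfh, against 114 and 165 CPM in EV Tfh cells, and 631 and 639 CPM in Bach2 non-Tfh, against 433 and 398 CPM in EV non-Tfh cells. Of the 4, it alone passed in the average (0.71, SE 0.151, adjusted p = 0.0482). Il7r had a log2 fold change of -0.21 in non-Tfh cells (adjusted p = 0.876).

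Between the cell types 2 of these 4 genes passed the test, both with estimates opposite in sign to those of Foxo1. Il7r (-3.12 with Bach2, -3.55 with EV) and Ccr7 (-1.39 with Bach2, -1.58 with EV) were lower in Tfh cells with both vectors, with adjusted p from 0.000592 to 0.00363, while the Foxo1 transcript was higher with Bach2 (0.30) and had an estimate of 0.08 with EV. Klf2 (-0.36 and -0.95) and S1pr1 (0.08 and -0.41) did not pass with either vector. With Bach2, 11.6% of all genes were higher in Tfh cells and 12.7% lower, and with EV 10.6% and 11.3%. Of the 24 FOXO targets, 5 were higher and 9 lower in Tfh cells with Bach2, and 5 higher and 10 lower with EV. The stress gene Gadd45a was among the higher ones, by 2.13 with Bach2 (adjusted p = 0.000166) and 2.34 with EV (6.33e-05). Bcl2l11 was lower in Tfh cells, by -0.80 with Bach2 (adjusted p = 0.000690) and -1.47 with EV (5.70e-06). These values are of transcripts, and FOXO proteins are controlled largely by their place in the cell, which was not measured here.

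For TCF-1 and LEF-1, none of 17 tested cofactor and beta-catenin control genes rose or fell with the vector in either cell type (medians 0.14 in Tfh and 0.01 in non-Tfh cells). Of all genes 0.549% rose and 1.16% fell in Tfh cells, and 0.253% and 0.619% in non-Tfh cells. Of 17 T cell genes linked to the pair, 2 rose in Tfh cells and 0 fell. They were Actn1, for the cytoskeletal protein alpha-actinin, with 178 and 185 CPM in Bach2 Tfh, against 103 and 107 CPM in EV Tfh cells (0.79, SE 0.114, adjusted p = 0.00674), and Gata3, the Th2 factor gene (0.45, SE 0.104, adjusted p = 0.0465). Actn1 remained in 8 of 8 fits that left out 1 library and Gata3 in 2 of 8. In non-Tfh cells the survival gene Bcl2 rose (0.69, SE 0.138, adjusted p = 0.0311), and Prdm1, the gene of the effector factor Blimp-1 (-1.21, SE 0.227, adjusted p = 0.0212), and Nrgn (-1.64, SE 0.322, adjusted p = 0.0281) fell. These 3 calls remained in 5, 5 and 4 of the 8 such fits.

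Averaged over the cell types, 2.37% of all genes rose and 2.90% fell. Of the 17 linked genes 4 rose (Actn1, Bcl2, Id3 and Il6ra) and 4 fell (Nrgn, Bcl6, Icos and Il2ra). Without EV non-Tfh replicate 2 the counts were 2 and 1, and the count that fell was 2 without EV non-Tfh replicate 1 or Bach2 non-Tfh replicate 2. Actn1, Bcl2 and Nrgn remained in 8 of 8 fits that left out 1 library, Id3 in 7, Icos in 5 and Il2ra in 3. Bcl6, the master factor of Tfh cells and a partner of TCF-1, had 119.9 and 102 CPM in Bach2 Tfh, against 159 and 135 CPM in EV Tfh cells, and 16.4 and 14.0 CPM in Bach2 non-Tfh, against 20.6 and 24.2 CPM in EV non-Tfh cells. Its averaged log2 fold change was -0.48 (SE 0.0986, adjusted p = 0.0136), past the threshold in 6 of 8 fits that left out 1 library, where those of Tcf7 and Lef1 were positive. Id3, an inhibitor of E proteins, had 438 and 413 CPM in Bach2 Tfh, against 318 and 343 CPM in EV Tfh cells, and 319 and 275 CPM in Bach2 non-Tfh, against 251 and 222 CPM in EV non-Tfh cells (averaged 0.35, SE 0.0665, adjusted p = 0.0103). Il6ra, for the interleukin-6 receptor, rose by 0.31 (SE 0.0777, adjusted p = 0.0356).

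Between the cell types Bcl6, like Tcf7 and Lef1, was higher in Tfh cells by 2.87 with Bach2 and 2.72 with EV. Of the 17 linked genes 9 were higher and 6 lower in Tfh cells with Bach2, and 8 higher and 7 lower with EV. The shares of all genes were 11.6% higher and 12.7% lower with Bach2, and 10.6% and 11.3% with EV. Bcl6, Cxcr5, Ascl2, Icos, Prdm1, Id2 and Il2ra also stand in the lists of Tfh or non-Tfh markers. These counts therefore partly follow from the choice of genes. Slamf6, a surface receptor of TCF-1-expressing T cells, was higher by 1.18 with Bach2 (adjusted p = 3.45e-07) and 0.86 with EV (5.38e-06). The interleukin-2 receptor gene Il2ra was lower by -4.10 with Bach2 (adjusted p = 5.59e-09) and -3.96 with EV (8.13e-09). Cxcr5 is among the higher genes and was used for the sort.

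Of 28 tested genes of T cell quiescence, 3 rose in Tfh cells (Btg1, Klf3 and Btg2) and 0 fell, with a median of 0.26. The share of all genes that rose was 0.549% in Tfh cells, 0.253% in non-Tfh cells and 2.37% averaged, and 1.16%, 0.619% and 2.90% fell. In non-Tfh cells 2 rose (Btg1 and Pik3ip1, which the FOXO list also holds) and 0 fell, with a median of 0.13. Between the cell types 6 of the 28 were higher and 6 lower in Tfh cells with Bach2, and 3 higher and 8 lower with EV. The shares of all genes were 11.6% higher and 12.7% lower with Bach2, and 10.6% and 11.3% with EV. Btg1, Btg2 and Pik3ip1 were among the lower ones with both vectors. Btg1, an anti-proliferative gene that acts in mRNA turnover, had 739 and 785 CPM in Bach2 Tfh, against 537 and 546 CPM in EV Tfh cells (0.49, SE 0.0768, adjusted p = 0.00919), and 873 and 908 CPM in Bach2 non-Tfh, against 662 and 621 CPM in EV non-Tfh cells (0.47, SE 0.0766, adjusted p = 0.00949). Averaged, 6 of 28 rose (Btg1, Pik3ip1, Dgka, Klf3, Btg2 and Peli1), a count that was 3 without EV non-Tfh replicate 2. Averaged Btg1, Pik3ip1 and Klf3 remained in 8 of 8 fits that left out 1 library, Dgka in 7 and Btg2 in 2. The Tfh calls of Btg1, Klf3 and Btg2 remained in 6, 5 and 2 of the 8 fits that left out 1 library.

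Of 28 tested proliferation genes, 20 fell with Bach2 in Tfh cells and 0 rose, with a median of -0.64. Among all genes 0.549% rose and 1.16% fell in Tfh cells, and 0.253% and 0.619% in non-Tfh cells. In non-Tfh cells 0 of 28 passed in either direction, with a median of -0.15 and all 28 estimates below 0. The interaction was below 0 for all 28 (median -0.47) and passed for 0, and for 6 without a count filter. The summed level of the list was 2958 to 3027 CPM in Bach2 Tfh, 4111 to 4714 CPM in EV Tfh, 4063 to 4343 CPM in Bach2 non-Tfh and 4536 to 4884 CPM in EV non-Tfh libraries. Cdc6, a replication licensing gene, fell by 1.22 on the log2 scale in Tfh cells (SE 0.156, adjusted p = 0.00339). Mcm5, one of the helicase subunits of replication, fell by 0.74 (SE 0.0871, adjusted p = 0.00183). Between the cell types 1 of the 28 was higher and 23 lower in Tfh cells with Bach2, and 1 higher and 7 lower with EV. The shares of all genes were 11.6% higher and 12.7% lower with Bach2, and 10.6% and 11.3% with EV. The count of 20 was 3 without EV Tfh replicate 2 and 7 without Bach2 Tfh replicate 2. The part of the lower proliferation genes in the rise of Lef1, Foxp1 and Foxo1 was not tested.

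**Figure D4:**
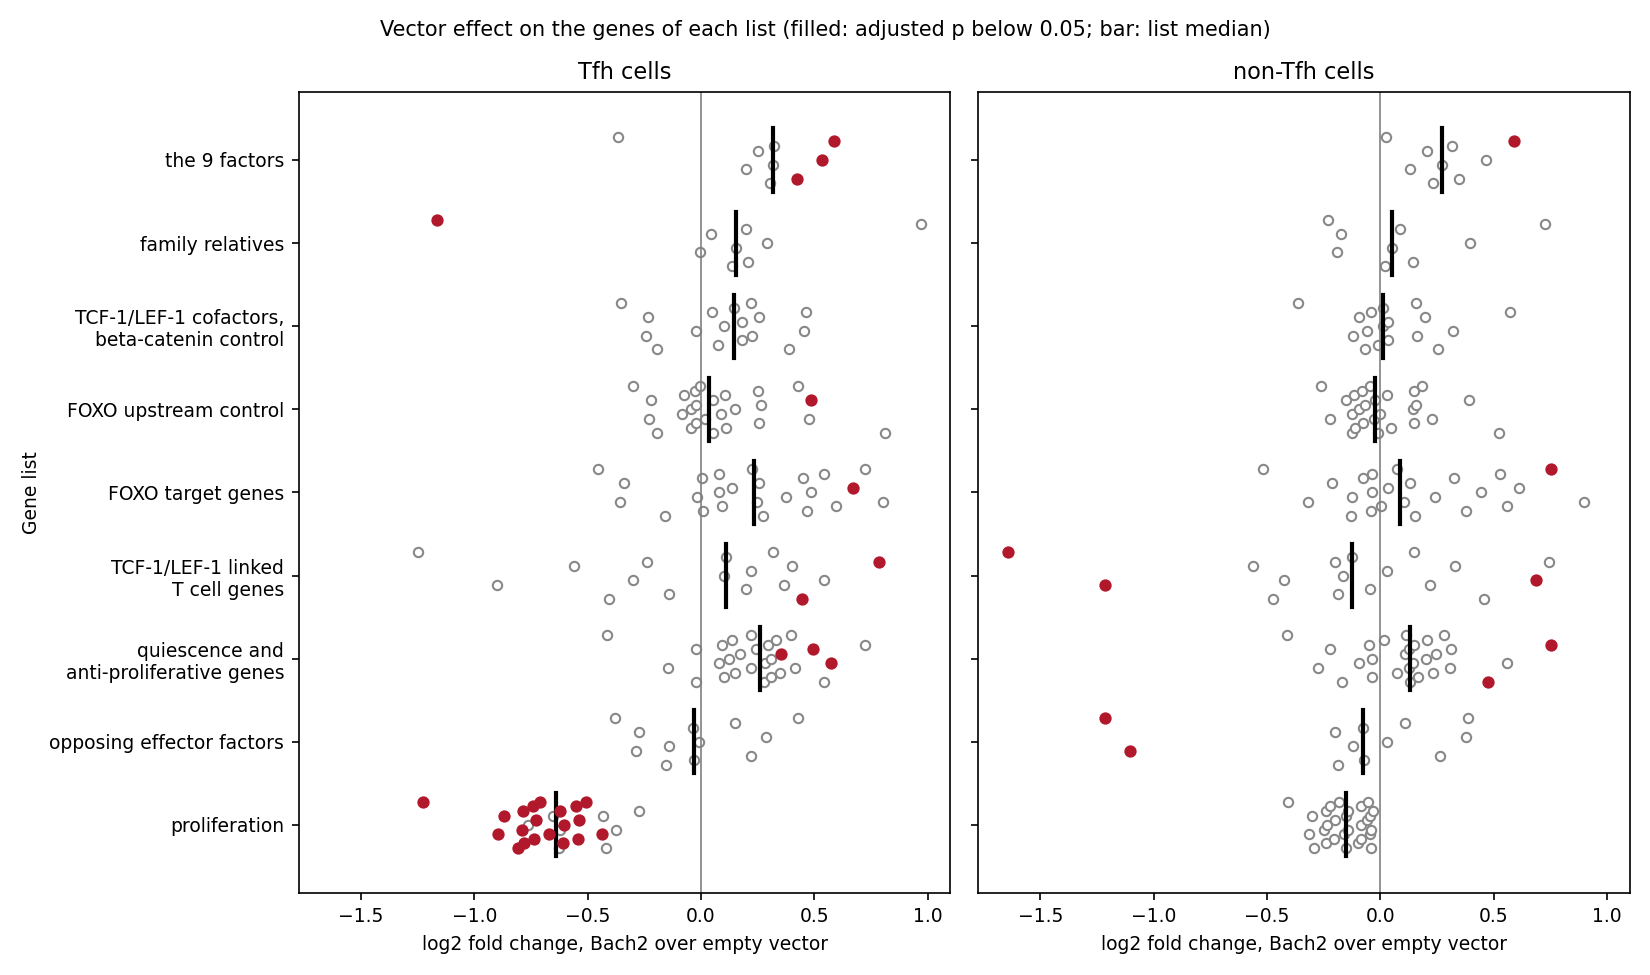
Log2 fold change of Bach2 over empty vector (horizontal axes) for every tested gene of each list (vertical axis) in Tfh cells (left) and non-Tfh cells (right); filled points have an adjusted p below 0.05, open points do not, and black bars are list medians. The 9 factors have medians of 0.32 in Tfh and 0.27 in non-Tfh cells, and the proliferation genes of -0.64 and -0.15.

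Of 16 relatives of the 9 factors in the same families, 9 were tested. In the plot of the lists 0 of these rose and 1 fell in Tfh cells, where 0.549% of all genes rose and 1.16% fell. The gene that fell was Mybl2, the cell cycle relative of Myb. It had 17.8 and 10.8 CPM with Bach2, against 28.6 and 36.1 CPM with EV (-1.17, SE 0.218, adjusted p = 0.0201). The Myb estimate was positive where that of Mybl2 was negative. In non-Tfh cells 0 of the 9 relatives passed, where 0.871% of all genes did. Between the cell types 1 of the 9 relatives was higher and 2 lower in Tfh cells with Bach2, and 1 higher and 3 lower with EV. The shares of all genes were 11.6% and 12.7% with Bach2, and 10.6% and 11.3% with EV. Of the ETS family, Elf1 was higher in Tfh cells (0.58 with Bach2, adjusted p = 0.000348, and 0.52 with EV, adjusted p = 0.000871). Fli1 was lower (-0.27 with Bach2, adjusted p = 0.0339, and -0.58 with EV, adjusted p = 0.000241), and so was Elf4 with EV (-0.52, adjusted p = 0.0152). The forkhead gene Foxp4 was lower with EV (-0.43, adjusted p = 0.0304) and Mybl2 with Bach2 (-1.42, adjusted p = 0.000437).

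Of 12 factors that drive effector fates, 0 rose and 0 fell with Bach2 in Tfh cells, and in non-Tfh cells Prdm1 and Rora fell while 0 rose. Among all genes 0.549% rose and 1.16% fell in Tfh cells, and 0.253% and 0.619% in non-Tfh cells. Rora, for the nuclear receptor ROR-alpha, had 46.1 and 32.8 CPM in Bach2 non-Tfh, against 95.3 and 74.2 CPM in EV non-Tfh cells (-1.11, SE 0.206, adjusted p = 0.0436, past the threshold in 3 of 8 fits that left out 1 library). Prdm1 had 10.04 and 14.5 CPM in Bach2 non-Tfh, against 29.7 and 27.4 CPM in EV non-Tfh cells. It had 3.04 and 1.69 CPM in Bach2 Tfh, against 2.41 and 2.91 CPM in EV Tfh cells, and these overlapped. In Tfh cells Runx3, Prdm1 and Myc were lower with both vectors, by -1.38, -2.35 and -1.97 with Bach2 and -1.70, -3.43 and -1.56 with EV. Stat4 and Hif1a were higher in Tfh cells with both vectors, so 2 of the 12 were higher and 6 lower with each. The shares of all genes were 11.6% higher and 12.7% lower with Bach2, and 10.6% and 11.3% with EV. Prdm1, Id2 and Tbx21 of this list also stand in the list of non-Tfh markers.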

How the data were processed

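RNA of 8 libraries of sorted mouse T cells was measured, 2 in each of 4 groups. The deposited values are raw counts per Ensembl gene, as the values show. Per the labels' protocols, RNA was amplified with Smart-Seq v4 and made into libraries with Nextera XT, which do not mark the strand. Per the submitters' processing notes, TopHat2, Bowtie2 and featureCounts were used with GRCm38/mm10; their versions and the annotation release: not given in the sources used here. Symbols came from GENCODE M21 by Ensembl ID (37607 of 39179 IDs; the other 1572 held 0.187% to 0.205% of a library's counts and stayed in the fit).

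The filter was filterByExpr of edgeR (at least 10 counts in enough libraries, 15 in total), and 11475 genes remained. Counts of all 8 libraries were fitted with 1 coefficient per group (edgeR 4.0.16 in R 4.3.3, TMM factors 0.985 to 1.01, robust quasi-likelihood, 4 residual degrees of freedom, common dispersion 0.00979). P-values were adjusted over all tested genes, with a threshold of 0.05. With 2 libraries a group the smallest exact permutation p is 0.333, so single genes got no such test. On simulated data with 200 genes changed 2-fold in the Tfh vector comparison of 11475 genes, 164 were recovered with 5 false calls. Every simulated gene had the common dispersion. The vector effects of the 9 genes were at most 1.51-fold, so this recovery does not apply to them. Replicates were not copies (chi-square per degree of freedom 5.67 to 8.81).

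The 9 genes and all gene lists were chosen with earlier results of these data known, the lists from textbook roles, and some genes stand in more than 1 list. Named were all 9 genes, Bach2, up to 3 called genes per list, direction and comparison, and the 3 genes most correlated with each factor over log2 CPM (prior count 2). Klf2, Ccr7, S1pr1, Il7r and Il6ra, and the remaining genes of short called lists, were named with values seen. Alternatives were DESeq2 1.42.0, its size factors, no count filter, a non-robust fit, only the compared groups, a replicate block, and each library left out.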

Additional observations from a re-analysis of the deposited data

Results flagged for a closer look

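Foxo3 was picked out because its Bach2 and EV libraries were separated in opposite directions in the 2 cell types. It had 8.03 and 6.52 CPM in Bach2 Tfh cells, against 9.93 and 8.86 CPM in EV Tfh cells, and 6.33 and 6.47 CPM in Bach2 non-Tfh cells, against 5.34 and 3.90 CPM in EV non-Tfh cells. The vector effect in Tfh minus that in non-Tfh cells was -0.84 on the log2 scale (SE 0.365, edgeR's quasi-likelihood interaction, unadjusted p = 0.0379, adjusted p = 0.998), so the difference did not pass the test over all genes. Foxo3 had 35 to 99 counts in a library.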

How the results depend on the processing

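Of 2894 gene values recomputed under the alternatives, 2563 kept their direction and side of the threshold, 303 lost the threshold, 14 gained it and 14 reversed. The 9 factors and Bach2 entered with every comparison. Other named genes entered only where they had passed in the main fit, so they could lose the threshold but not gain it. Genes past the threshold numbered 196 in the Tfh vector comparison, 326 under DESeq2 and 736 without a count filter (21 to 254 with 1 library left out). In non-Tfh cells they numbered 100, 161 and 332 (17 to 133), averaged over cell types 605, with 1255 without a filter (190 to 764), and for the interaction 0, 4 and 37 (0 to 1). With EV 2515 genes differed between the cell types (1341 to 2698), and with Bach2 2796 (1922 to 2735). Of the 9 factors, 3 rose in Tfh cells, 5 without a filter (Tcf7 and Ets1 added; 1 to 3 with 1 library left out). In non-Tfh cells 1 rose, and 2 under DESeq2 and without a filter (Tcf7 added; 0 to 1), and averaged 5 rose (3 to 7). With EV 4 were higher (3 to 4) and 2 lower (0 to 2) in Tfh cells, and with Bach2 5 higher (3 to 5) and 2 lower (0 to 2). Proliferation genes that fell numbered 20 in Tfh cells (3 to 22) and 20 averaged (10 to 24). The causes were not tested.

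Leaving out 1 library turned estimates that had not passed: Ets1 (from -0.0573 to 0.12) and Satb1 (from -0.0112 to 0.26) in the non-Tfh vector comparison, averaged Foxo3 (from -0.0526 to 0.17), Ets1 between cell types with EV (-0.0025 to 0.24), and the interactions of Myb, Tcf7, Lef1, Bcl11b and Satb1 (from -0.0848 to 0.14 for Myb, -0.21 to 0.0032 for Tcf7, -0.18 to 0.0445 for Lef1, -0.14 to 0.0755 for Bcl11b and -0.12 to 0.45 for Satb1).

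Replicate numbers were shared between groups, but same-numbered libraries deviated together only weakly (r over genes -0.0041 to 0.24), so the numbers were not taken as pairs. The largest r were between Tfh and non-Tfh libraries with the same vector, 0.24 with Bach2 and 0.21 with EV. The labels do not say what a shared number marks. With a replicate block 473 genes passed in Tfh cells, 207 in non-Tfh cells, 975 averaged and 3 for the interaction, and 2 of the 9 factors rose in non-Tfh cells (Tcf7 added, adjusted p = 0.0376). Averaged Bcl11b also passed with the block (0.0364). The fit to the compared groups only could not be made for the average and the interaction, which need all 4 groups. Foxo3 had the fewest counts of the 9 genes, 35 to 99 in a library.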
